A study of Mus musculus with 13 samples.

Results

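H3K27ac at 34 genes of central carbon metabolism was followed across all 13 libraries of a macrophage study. The genes encode glucose and lactate transporters (3 genes), glycolytic enzymes (16), and HIF-1α and 3 proteins that hold it in check (4). The others encode enzymes listed for the TCA cycle and its entry (10) and the itaconate-making enzyme Acod1 (1). The 10 include Idh1, a cytosolic enzyme, and Pdk1, a kinase that acts on pyruvate dehydrogenase. All 34 were chosen by function, with earlier results of these data known, from 21887 protein-coding genes measured in the same way. For each gene the ChIP reads of every called island that touched its annotated span or 1 kb either side were summed. All 34 had an island in at least 1 library, 33 of them in all 13, and Egln3 in 12.

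H3K27ac marks promoters and enhancers that are in use. It was measured by ChIP-seq with the antibody ab4729 in bone marrow-derived macrophages of C57BL/6 mice, cultured in L929-conditioned medium and taken on day 7 of differentiation. For the cytokine experiment, macrophages were left untreated (1 library) or treated (6 libraries) for 2 h or 4 h with IL-4 at 10 ng/ml, with IFNγ at 100 ng/ml, or with the 2 together. The knockdown experiment had 6 libraries: cells with a scramble shRNA, with shJunB or with shCEBPb, each untreated or after 4 h of IFNγ (100 ng/ml). The series asked how the inflammatory program that IFNγ drives and the alternative program that IL-4 drives act on each other in chromatin. Every condition had 1 library, the scramble, shJunB and shCEBPb cells are named only by their shRNA, and the labels do not say which libraries came from separate cultures or animals.

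Glycolysis breaks glucose down to pyruvate, which lactate dehydrogenase turns to lactate or which enters the TCA cycle in the mitochondrion. HIF-1α is a transcription factor that switches on glycolytic genes, and prolyl hydroxylases (Egln1, Egln3) together with the ubiquitin ligase subunit Vhl bring about its destruction when oxygen is plentiful. Inflammatory macrophages are known for high glycolysis and for a TCA cycle that is diverted at isocitrate and succinate, with itaconate drawn off by Acod1.

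Library totals, recovered from the deposited fold over control, ran from 14340693 to 37419916 reads, of which 65.1% to 80.0% lay in called islands, and the shallowest was the scramble library with IFNγ. The called length per library was 176.3 to 205.6 Mb among the cytokine libraries, less than the 217.8 to 243.7 Mb of the knockdown libraries, so levels are compared within an experiment. Values are reads divided by a size factor of the library ("normalised reads"). Of 10 macrophage markers all 10 were called in every library, with 43253 to 69875 normalised reads in sum. Single markers among them moved in both directions with treatment. Lyz2 held 7499 normalised reads untreated and 149 after 2 h of IFNγ, and Cd14 12830 untreated and 1409 after 2 h of IL-4. Fcgr1 held 4141 untreated and 7656 after 2 h of IFNγ. Of the markers of other cells 4 of 7 for T cells, 4 of 6 for B cells, 4 of 7 for neutrophils, 1 of 6 for fibroblasts and 4 of 6 for mast cells and basophils were called in at least 1 library. Their sums ran from 925 to 9732 (T cells), 1280 to 7474 (B cells), 1189 to 6375 (neutrophils), 0.0 to 51.8 (fibroblasts) and 0.0 to 5786 (mast cells and basophils). Single genes of these lists moved with treatment: Cd4 held 7468 normalised reads untreated and 170 after 2 h of IL-4, Ltf 380 untreated and 6147 after 4 h of IFNγ, and Ms4a2 was not called untreated and held 5715 after 2 h of IL-4. The T cell genes Cd3g, Cd8a and Zap70, the B cell genes Pax5 and Ebf1 and the neutrophil genes S100a9, Mpo and Ngp were called in no library. The part of other cells in the results was not tested. H3K27ac at Junb or Cebpb does not check a knockdown of their RNA. A fold between 2 libraries carries an exact (Clopper-Pearson) 95% interval that covers counting error only, and reads have no molecular identifiers.

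After 4 h of IFNγ H3K27ac rose at 10 of 16 glycolytic enzymes and at Slc2a1, Hif1a, Egln3 and Acod1. Of the 10 genes listed for the TCA cycle and its entry it fell at 4, the cytosolic Idh1 among them, and rose at 2. The 4 pairs of libraries with and without 4 h of IFNγ (cytokine experiment, scramble, shJunB and shCEBPb cells) were fitted together in edgeR's quasi-likelihood test, with the pair as a block and p-values adjusted by Benjamini-Hochberg over 11849 genes. In this fit 16 of the 34 genes rose, where 15.3% of all genes did, and 4 fell, where 17.8% of all genes did. The 34 were chosen with earlier results of these data known, so these shares are descriptions. Of the glycolytic enzymes 0 fell (also 0 at an unadjusted p under 0.05 and 0 in DESeq2), and they had a median log2 fold change of 0.47 against -0.02 over all genes. Of the 10 genes of the TCA cycle and its entry 2 rose and 4 fell, with a median of -0.32. P-values measure the spread between these 4 pairs, which may be technical. A change in the share of cells that carry the mark and a change in the mark per cell cannot be told apart in bulk chromatin.

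The count depends on which pairs enter. Without the scramble, the shJunB or the shCEBPb pair 8 genes passed in each case, and 17 passed without the cytokine pair. The same 7 genes passed in each of these fits: Acod1, Egln3, Hif1a, Hk3, Pfkp and Slc2a1 higher, and Idh1 lower. When islands overlapping in any library were merged into regions common to all 13 libraries, 21 genes rose and 6 fell, and 15 of the 16 rises and all 4 falls of the main fit were among them, the exception being Eno1. More of all genes passed there as well, with 2774 of 12420 higher and 3082 lower.

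**Figure D1:**
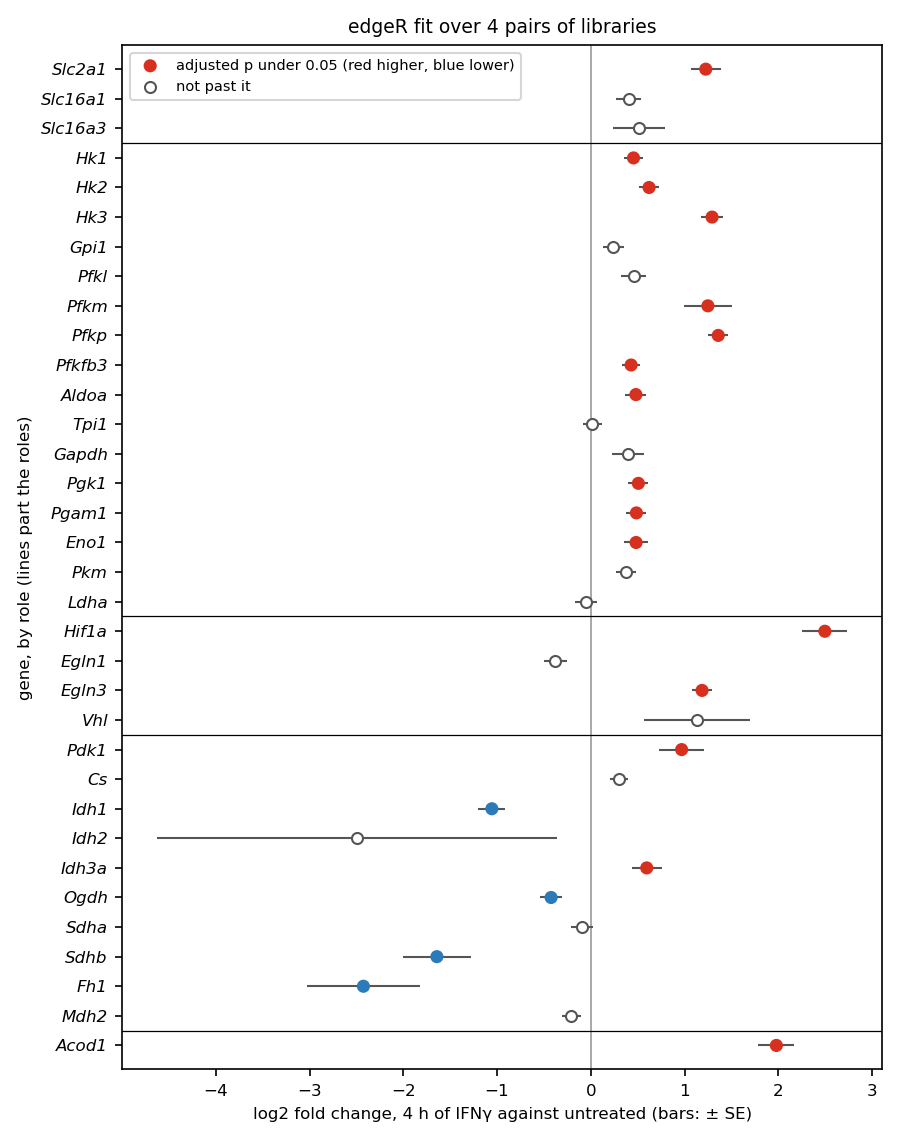
Log2 fold change (x axis) of each of the 34 genes (y axis, by role) after 4 h of IFNγ in the edgeR fit over 4 pairs of libraries, with its SE as a bar; filled points passed an adjusted p of 0.05. All glycolytic enzymes but Ldha lie right of 0, Hif1a stands at 2.50, and Fh1, Sdhb, Idh1 and Ogdh are the filled points left of 0.

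Among the transporters, Slc2a1 stood out. It encodes GLUT1, the main glucose importer of activated macrophages, and lies at chr4:119108745-119137330 (GRCm38). In the cytokine experiment it held 1757 normalised reads in untreated cells, 4537 and 4030 after 2 h and 4 h of IL-4, 6741 and 5728 after IFNγ, and 5124 and 4423 after both. In the knockdown experiment it held 2334, 2133 and 2406 in untreated scramble, shJunB and shCEBPb cells and 4571, 4887 and 4930 after IFNγ. The untreated libraries were the lowest in both experiments, and no treated library overlapped them. Across the 4 pairs Slc2a1 rose by 1.23 on the log2 scale (SE 0.16, adjusted p = 0.009361), higher in 4 of 4 pairs. The reads per kb of called island moved the same way, from 78.4 to 182 in the cytokine pair and from 73.8 to 122 in shCEBPb cells. The lactate carriers did not pass the test: Slc16a1 had a log2 fold change of 0.40 (SE 0.13, adjusted p = 0.07251) and Slc16a3 of 0.52 (SE 0.28, adjusted p = 0.2012). Slc16a3, the exporter known from glycolytic cells, shared islands with Csnk1d in 13 of 13 libraries.

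Among the enzymes, Hk3, Pfkp and Pfkm, which act at the hexokinase and phosphofructokinase steps, had the largest rises. Hk3, a hexokinase found mainly in myeloid cells, held 2753 normalised reads in untreated cells, 4037 and 1800 after 2 h and 4 h of IL-4, 6140 and 7963 after IFNγ, and 6098 and 6911 after both. The knockdown libraries went from 2055, 2183 and 2067 in untreated scramble, shJunB and shCEBPb cells to 4679, 5306 and 4650 with IFNγ. Within each experiment every library with IFNγ was above every library without it. The called length in the cytokine experiment ran from 9.2 to 14.8 kb and was longest in the 4 libraries with IFNγ. Hk3 rose by 1.29 on the log2 scale (SE 0.11, adjusted p = 0.005777). Its reads per kb went from 229 to 553 in the cytokine pair and from 121 to 321 in scramble cells. Of the other hexokinases, Hk2 rose by 0.62 (SE 0.11, adjusted p = 0.01608) and Hk1 by 0.45 (SE 0.10, adjusted p = 0.02981). Hk2 held 3982 normalised reads untreated, 3798 and 2722 after 2 h and 4 h of IL-4, 8643 and 6962 after IFNγ, and 7038 and 5010 after both, so that its 4 libraries with IFNγ were the highest of the cytokine experiment. Its untreated scramble, shJunB and shCEBPb libraries held 3299, 2968 and 3727, and those with IFNγ 4673, 4255 and 5865.

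Phosphofructokinase, the main control point of glycolysis, has a platelet, a muscle and a liver subunit. Pfkp, the platelet type, held 2378 normalised reads in untreated cells, 2878 and 3566 after 2 h and 4 h of IL-4, 3918 and 6260 after IFNγ, and 4613 and 6662 after both. Untreated scramble, shJunB and shCEBPb cells held 1489, 1742 and 1400, and the same cells with IFNγ 4174, 4387 and 3258. Every library with IFNγ was above the untreated library of its experiment, and the libraries at 4 h were above those at 2 h under each treatment. Pfkp rose by 1.36 on the log2 scale (SE 0.11, adjusted p = 0.004895).

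Pfkm, the muscle type, held 1031 normalised reads untreated, 1270 and 1188 after 2 h and 4 h of IL-4, 3038 and 4158 after IFNγ, and 3487 and 3509 after both. In the knockdown experiment it went from 1360, 1004 and 1130 to 2042, 2421 and 2471 in scramble, shJunB and shCEBPb cells. Pfkm rose by 1.25 (SE 0.25, adjusted p = 0.0235), with a called length of 9.4 kb untreated and 31.0 kb after 4 h of IFNγ and reads per kb of 110 and 134. In shJunB and shCEBPb cells reads per kb were lower with IFNγ, 88.1 against 80.2 and 81.9 against 77.2. An island from 36.0 to 48.6 kb downstream of the start site held 1982 normalised reads in the library with 4 h of IFNγ. The gene spans 39.9 kb, so most of this island lay past its end. Untreated cells had only an island from 46.6 to 48.6 kb there, with 78.9 normalised reads. That island lay beyond the 1 kb flank and so outside the summed value. In scramble cells an island there went from 178 to 920 normalised reads. Its islands are shared with Senp1 in 13 libraries and with Asb8 in 9. Pfkl, the liver type, did not pass (0.46, SE 0.13, adjusted p = 0.05355).

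Pfkfb3 makes the activator of phosphofructokinase, and it had the opposite pattern with IL-4. It held 3967 normalised reads untreated, 1396 and 1276 after 2 h and 4 h of IL-4, 2490 and 5102 after IFNγ, and 1912 and 3351 after both. The 2 libraries with IL-4 alone were the lowest of their experiment, and the 4 h IFNγ libraries were above the untreated library of the same cells in each of the 4 pairs. With IL-4 it was 2.84-fold lower at 2 h (95% interval 2.67 to 3.03) and 3.11-fold at 4 h (2.92 to 3.31), while called length went from 54.8 kb to 16.6 and 16.2 kb. Reads per kb were 72.4 untreated, 84.1 and 78.8 with IL-4, so the difference lay in how much was called. Over the 4 pairs with IFNγ Pfkfb3 rose by 0.43 (SE 0.09, adjusted p = 0.02746).

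Below phosphofructokinase, Aldoa, Pgk1, Pgam1 and Eno1, which carry sugar phosphates on to phosphoenolpyruvate, rose by 0.48 to 0.51 on the log2 scale, with adjusted p-values between 0.02546 and 0.04124. Eno1 had a log2 fold change of -0.33 (adjusted p = 0.09092) over merged regions. The remaining enzymes did not pass: Gpi1 (0.24), Tpi1 (0.02), Gapdh (0.40), Pkm (0.38) and Ldha (-0.05). Ldha, which makes lactate from pyruvate, held 2645 normalised reads in untreated cells, 1097 and 778 after 2 h of IFNγ and of both, and 2860 and 3009 at 4 h. These 2 h libraries were the lowest of their experiment, with called lengths of 9.2 and 3.8 kb against 16.4 kb untreated. Per kb of called length the direction turned with both cytokines, where 205 reads per kb stood against 161 untreated, and with IFNγ it was 119.

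Hif1a had the largest rise of the 34 genes. It encodes HIF-1α and lies at chr12:73901324-73947554, with the listed start site inside that span. Its islands held 835 normalised reads in untreated cells, 961 and 727 after 2 h and 4 h of IL-4, 1186 and 8071 after IFNγ, and 974 and 6504 after both. In scramble, shJunB and shCEBPb cells they held 1296, 1084 and 1150 untreated and 5448, 5869 and 5342 with IFNγ. All 5 libraries with 4 h of IFNγ were at least 4 times as high as any other library of their experiment, and the 2 h libraries lay near the untreated one. Hif1a rose by 2.50 on the log2 scale (SE 0.24, adjusted p = 0.006083).

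The map of islands around the start site shows where these reads lay. In untreated cells an island of 15.2 kb covered the start site and another of 4.8 kb lay between -28.27 and -23.47 kb of it, upstream. After 2 h of IFNγ the islands ending more than 10 kb upstream held 3608 normalised reads against 486 untreated, while the island over the start site held 1185 against 835. With both cytokines for 2 h the upstream islands held 3331, and with IL-4 1260 at 2 h and 622 at 4 h. At 4 h of IFNγ an island of 50.0 to 60.0 kb ran from -40.87 kb or farther upstream across the start site in all 5 libraries, so the summed value took in upstream reads. In shJunB and shCEBPb cells a separate island still farther upstream held 43.9 and 231 normalised reads. Counted as a whole stretch, Hif1a held 1321 untreated, 4794 after 2 h and 8071 after 4 h of IFNγ, and 2221 and 1348 with IL-4. Reads per kb of the gene's islands were 54.9 untreated and 135 after 4 h of IFNγ, and in scramble cells 61.1 and 99.4. With each island's reads shared out by its overlap with the gene, the log2 ratio at 4 h of IFNγ was 1.72 in the cytokine pair and 0.59, 1.02 and 0.87 in scramble, shJunB and shCEBPb cells.

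**Figure D2:**
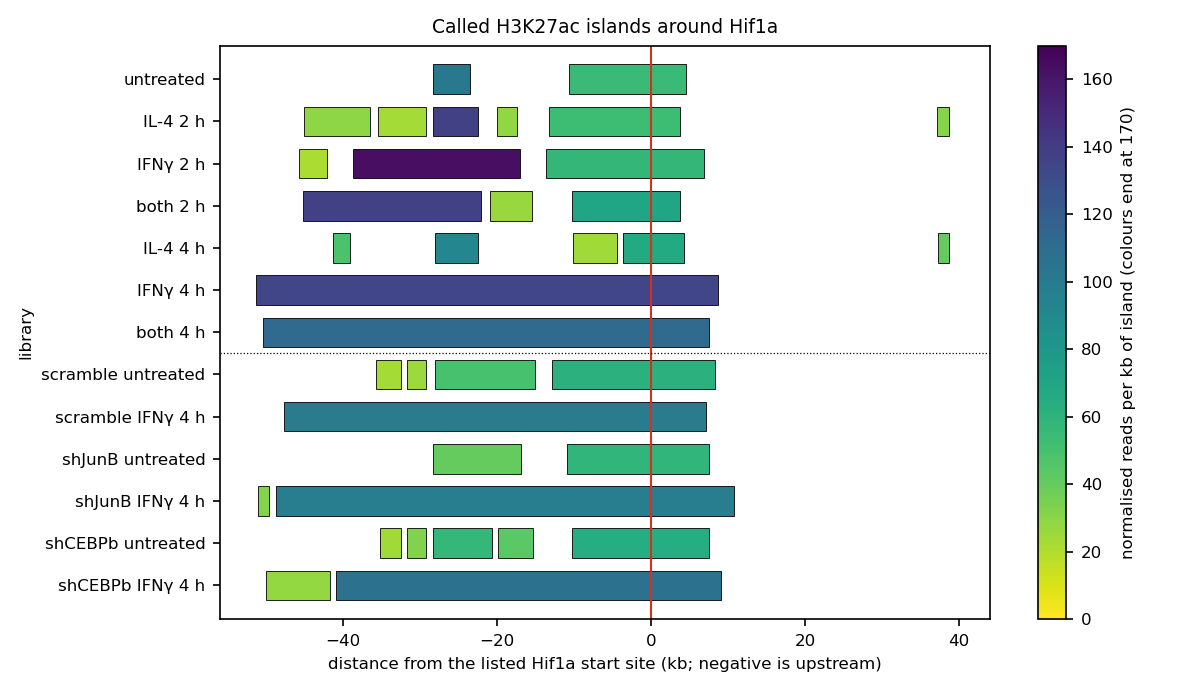
Called H3K27ac islands around Hif1a, 1 row per library (y axis), by distance from the listed start site in kb (x axis, negative is upstream; red line at 0); the colour gives normalised reads per kb of island. In the 5 libraries with 4 h of IFNγ an island of 50.0 to 60.0 kb runs across the start site and most of the upstream stretch, with a further upstream island in shJunB and shCEBPb cells; at 2 h the upstream islands are called apart from the start site.

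The genes that restrain HIF-1α did not move as a group. Egln3, a prolyl hydroxylase that is itself a known HIF target, held 171 normalised reads untreated, 221 and 118 after 2 h and 4 h of IL-4, no called island and 369 after IFNγ, and 59.8 and 276 after both. Untreated scramble, shJunB and shCEBPb cells held 332, 212 and 233, and the same cells with IFNγ 924, 458 and 481. A library without an island is no measurement of 0. The 2 h library with both cytokines lay below untreated cells, and all 5 libraries with 4 h of IFNγ lay above the untreated library of their cells. Egln3 rose by 1.19 over the 4 pairs (SE 0.11, adjusted p = 0.005808). Reads per kb hardly differed, 40.8 untreated and 48.6 after 4 h of IFNγ, while the called length went from 4.2 to 7.6 kb. Egln1, the main oxygen sensor of the family, had a log2 fold change of -0.38 (SE 0.13, adjusted p = 0.07555). Vhl had 1.13 (SE 0.56, adjusted p = 0.1746), and its called length ran from 9.2 to 100.0 kb, with an island joined to that of Irak2 in 5 libraries.

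Promoter windows of the 4 genes with the largest changes among those that passed are shown, and all 13 libraries had an island over each of them. They are the 250 bases before the listed start site, from RefSeq (GRCm38.p6): Hif1a chr12:73907617-73907866 on the plus strand, Fh1 chr1:175625636-175625885 on the minus strand, Acod1 chr14:103046762-103047011 and Sdhb chr4:140961021-140961270 on the plus strand. They are read 5′ to 3′ on the gene's strand. Capitals mark a hypoxia response core (ACGTG or GCGTG, either strand) or a STAT6-type site (TTC and GAA with 4 bases of any kind between them); the capitals near the middle of the Hif1a window hold the core on both strands, one overlapping the other.
Hif1a: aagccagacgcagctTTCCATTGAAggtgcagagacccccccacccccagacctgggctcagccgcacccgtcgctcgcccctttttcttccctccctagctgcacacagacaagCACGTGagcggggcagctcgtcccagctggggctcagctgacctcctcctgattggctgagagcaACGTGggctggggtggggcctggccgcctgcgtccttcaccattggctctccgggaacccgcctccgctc
Fh1: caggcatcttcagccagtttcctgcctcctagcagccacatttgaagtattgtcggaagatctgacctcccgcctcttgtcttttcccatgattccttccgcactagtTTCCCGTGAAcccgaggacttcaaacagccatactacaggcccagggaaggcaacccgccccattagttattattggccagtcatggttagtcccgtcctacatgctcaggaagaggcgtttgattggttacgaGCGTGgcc
Acod1: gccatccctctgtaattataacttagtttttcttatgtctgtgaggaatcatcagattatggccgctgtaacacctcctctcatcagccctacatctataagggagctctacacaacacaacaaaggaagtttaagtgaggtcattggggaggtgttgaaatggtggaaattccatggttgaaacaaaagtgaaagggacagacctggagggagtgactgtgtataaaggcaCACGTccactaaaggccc
Sdhb: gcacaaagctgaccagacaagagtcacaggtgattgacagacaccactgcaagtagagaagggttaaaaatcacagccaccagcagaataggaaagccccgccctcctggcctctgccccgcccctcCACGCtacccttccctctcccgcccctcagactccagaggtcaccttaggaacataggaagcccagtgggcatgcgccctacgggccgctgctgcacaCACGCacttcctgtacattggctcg

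The hypoxia core was common among these genes. Of 33 genes with a listed promoter 25 (75.8%) held ACGTG or GCGTG on either strand in this window, against 7659 of 17492 (43.8%) coding genes. Of the 15 genes that rose and had a promoter, 13 held it, Hif1a among them. Of the genes that fell, Fh1, Sdhb and Ogdh held it and Idh1 did not. The STAT6-type letters were in 5 (Fh1, Gpi1, Hif1a, Hk3 and Ldha) and in 5.4% of all. A match is a description of letters and not a bound site.

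Idh1 was the fall that passed in each fit that left out a pair. It encodes the cytosolic isocitrate dehydrogenase and lies at chr1:65158616-65186479. It held 2690 normalised reads untreated, 1457 and 1680 after 2 h and 4 h of IL-4, 1245 and 979 after IFNγ, and 2088 and 1573 after both. In scramble, shJunB and shCEBPb cells it held 2219, 2243 and 2253 untreated and 1149, 1142 and 1257 with IFNγ. The untreated libraries were the highest of their experiment, and at each time the library with both cytokines lay above that with IFNγ alone. Idh1 fell by 1.06 on the log2 scale (SE 0.14, adjusted p = 0.009932), lower in 4 of 4 pairs. In untreated cells a single island ran from 4.12 kb upstream to 11.7 kb downstream of the start site, and after IFNγ it was called as 2 parts. The libraries with IL-4, with both cytokines and of untreated shCEBPb cells also had 2 islands. Reads per kb were 170 untreated and 94.1 after 4 h of IFNγ. Its islands are shared with Pikfyve in all 13 libraries.

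Sdhb and Fh1 also fell, and for both the called length differed widely. Sdhb, the iron-sulfur subunit of succinate dehydrogenase, held 11326 normalised reads untreated and 915 to 2255 in the 6 treated libraries of the cytokine experiment, IL-4 included. In scramble, shJunB and shCEBPb cells it held 6339, 7042 and 7399 untreated and 2163, 2078 and 4984 with IFNγ. Sdhb fell by 1.64 (SE 0.36, adjusted p = 0.02807). Reads per kb were also lower with IFNγ in each pair, from 233 to 91.0 in the cytokine pair and from 153 to 102 in shCEBPb cells. The islands joined those of Padi2 in 4 libraries and of Atp13a2 in 5, and the part of the neighbours in the values was not tested.

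Fh1, which encodes fumarate hydratase, held 2833 normalised reads untreated, 2181 and 432 after 2 h and 4 h of IL-4, 4653 and 234 after IFNγ, and 7183 and 2302 after both. In scramble, shJunB and shCEBPb cells it held 2498, 387 and 1400 untreated and 272, 291 and 284 with IFNγ. The libraries with IFNγ alone were high at 2 h and lowest at 4 h, and the knockdown cells differed already without IFNγ. Fh1 fell by 2.43 (SE 0.60, adjusted p = 0.03697). Its called length ran from 3.4 to 40.6 kb, with Kmo sharing an island in 7 libraries. Reads per kb were 131 untreated and 68.8 after 4 h of IFNγ in the cytokine pair, and 64.2 and 59.2 in shCEBPb cells. Ogdh, of the 2-oxoglutarate dehydrogenase complex, fell by 0.42 (SE 0.12, adjusted p = 0.04747). Its fall passed in DESeq2 and over merged regions, but not without the pair block, with 10 kb either side or when any one pair was left out.

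Rises among the genes of the TCA cycle and its entry were seen at Pdk1, a kinase that shuts pyruvate dehydrogenase and a known HIF target, and at Idh3a, a subunit of the mitochondrial NAD-dependent isocitrate dehydrogenase. Pdk1 held 1146 normalised reads untreated, 351 and 718 after 2 h and 4 h of IL-4, 1709 and 2353 after IFNγ, and 1757 and 2028 after both. Its untreated scramble, shJunB and shCEBPb libraries held 1140, 1142 and 543, and those with IFNγ 1731, 1629 and 1804. Pdk1 was lowest in the IL-4 libraries of the cytokine experiment, over 2-fold below untreated cells at 2 h, with 79.8 reads per kb there and 78.5 untreated and a called length of 4.4 against 14.6 kb. Over the 4 pairs Pdk1 rose by 0.97 (SE 0.24, adjusted p = 0.03591), which did not pass when any one pair was left out, and Idh3a by 0.60 (SE 0.16, adjusted p = 0.0432). Idh3a held 103 normalised reads untreated and 180 to 293 in all 6 treated libraries of the cytokine experiment, with IL-4 at 4 h the highest. Cs (0.30), Sdha (-0.09) and Mdh2 (-0.21) did not pass. Idh2 did not pass either (-2.50, SE 2.13, adjusted p = 0.3931), and its value ran from 122 to 13609 normalised reads, with an island joined to Zfp710 in 4 libraries.

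Acod1 makes itaconate from the TCA cycle intermediate cis-aconitate and lies at chr14:103047012-103056573. Its islands held 3673 normalised reads untreated, 7311 and 2940 after 2 h and 4 h of IL-4, 13824 and 11735 after IFNγ, and 13454 and 7070 after both. In scramble, shJunB and shCEBPb cells they held 2071, 1487 and 1455 untreated and 7098, 5434 and 8813 with IFNγ. IL-4 gave a high value at 2 h only, and at 4 h the library with both cytokines lay below that with IFNγ alone. Acod1 rose by 1.98 (SE 0.19, adjusted p = 0.006083), with reads per kb of 112 and 255 in the cytokine pair. The rise was 3.19-fold in the cytokine pair (95% interval 3.07 to 3.32), 3.43-fold in scramble (3.25 to 3.62), 3.66-fold in shJunB (3.45 to 3.87) and 6.06-fold in shCEBPb cells (5.75 to 6.38). The difference between these pairs was not tested. Over merged regions the rise was 2.37-fold, 2.65-fold, 2.34-fold and 2.63-fold in the same order, and with island reads shared out by overlap Acod1 was under 2-fold in all 4 pairs, with log2 ratios of 0.84, 0.59, 0.78 and 0.83. Called length went from 23.0 to 55.6 kb in shCEBPb cells and from 33.0 to 41.4 kb in scramble cells.

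**Figure D3:**
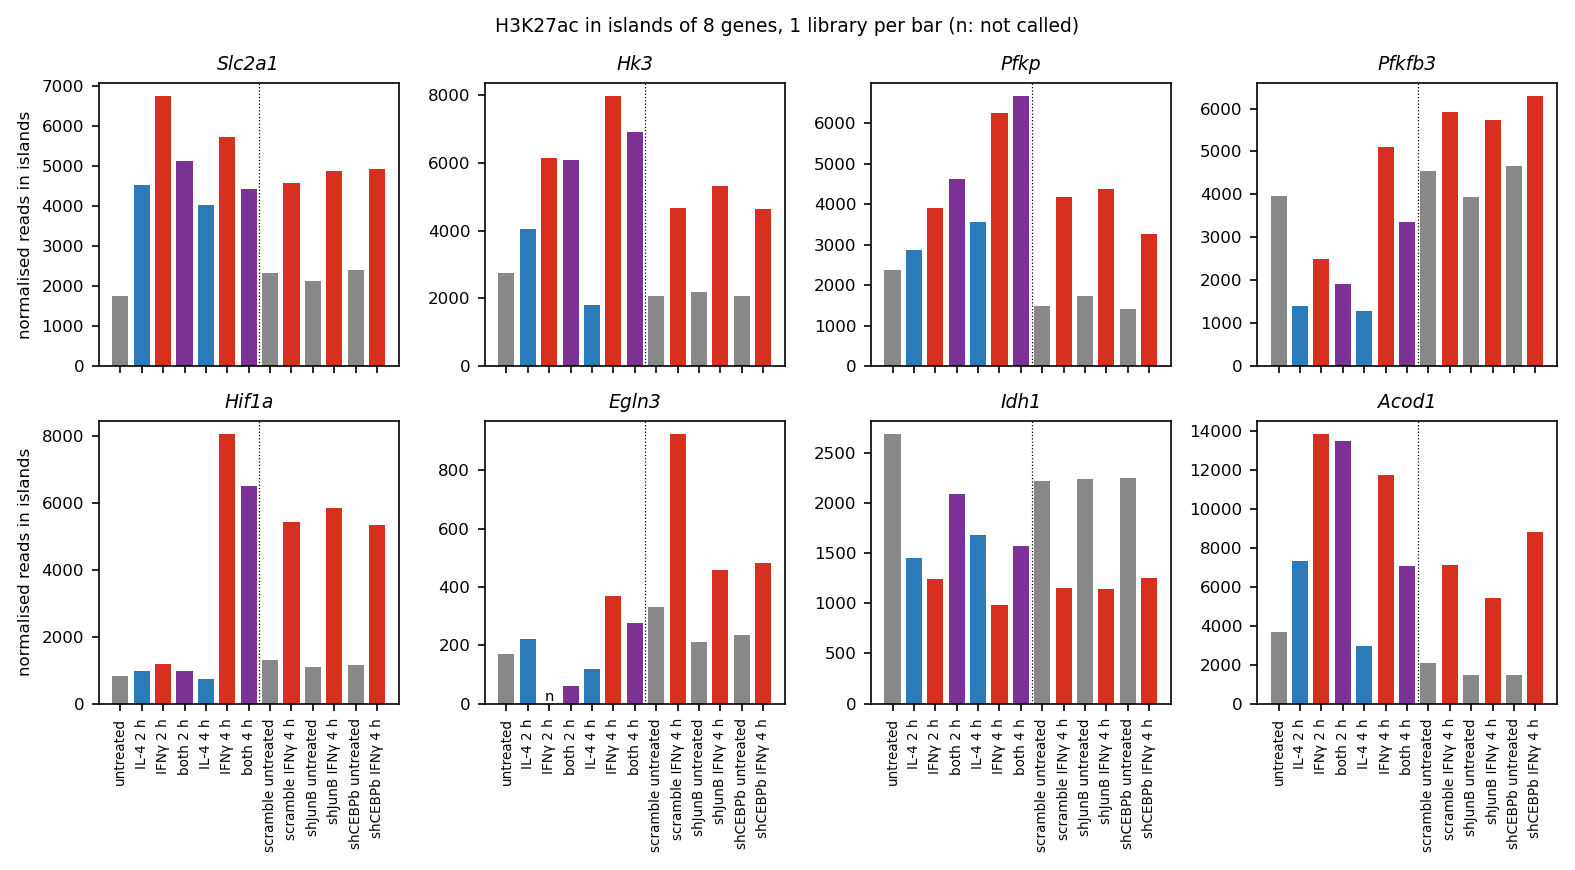
Normalised reads in the islands of 8 genes (y axis, from 0) in each of 13 libraries (x axis; grey untreated, blue IL-4, red IFNγ, purple both; n, not called); the dotted line parts the cytokine experiment from the knockdown experiment. Hif1a is high only in the libraries with 4 h of IFNγ, alone or with IL-4, where its islands take in the upstream stretch. Pfkfb3 is lowest with IL-4 alone, and Idh1 is highest in the untreated libraries.

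Single libraries were compared by size alone, 2-fold or more, with no fewer than 50 normalised reads in the higher of the 2. After 2 h of IFNγ 5 of the 34 genes were higher (15.7% of all genes measured) and 6 lower (13.9%), and after 4 h 10 were higher (16.7%) and 4 lower (15.0%). At 2 h Slc2a1, Hk2, Hk3, Pfkm and Acod1 were higher, and at 4 h Hif1a, Pfkp, Egln3, Pdk1 and Idh3a were among the higher genes while Hk2 stood at 6962 normalised reads against 3982 untreated. With 4 h of IFNγ 6 genes were higher (8.59%) and 3 lower (10.6%) in scramble cells, 7 higher (10.3%) and 2 lower (9.73%) in shJunB cells, and 9 higher (9.33%) and 1 lower (9.63%) in shCEBPb cells. Hk3, Pfkp, Hif1a, Egln3 and Acod1 were among the higher genes in each, and with island reads shared out by overlap only Hk3 was past the size rule in shCEBPb cells. Per kb of called length fewer passed, 2 of the 34 after 2 h and 7 after 4 h of IFNγ in the cytokine experiment.

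With IL-4 the count past the size rule was no larger than the share over all genes would give. At 2 h 3 were higher (11.3% of all genes) and 4 lower (12.9%), and at 4 h 3 were higher (9.72%) and 3 lower (13%). Slc2a1 was 2.58-fold higher at 2 h (95% interval 2.43 to 2.74) and 2.29-fold at 4 h (2.16 to 2.44), and Idh3a was higher at both times. Slc2a1 was thus past the size rule with each cytokine alone, each time against the same untreated library. That library held the lowest Slc2a1 value of the 13, so these comparisons do not repeat one another independently. Pfkfb3 was lower with IL-4 at both times, and also with both cytokines at 2 h. Over merged regions Slc2a1, Idh3a and Pfkfb3 were past the size rule with IL-4 at both times as well.

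With both cytokines few genes differed by size from IFNγ alone and more from IL-4 alone; the difference between these counts was not tested. At 2 h 5 genes were higher than untreated (15.7%) and 5 lower (14.2%), and at 4 h 6 were higher (14.9%) and 1 lower (12.5%). Against IFNγ alone 0 genes passed the size rule at 2 h (4.55% of all genes were higher and 5.48% lower), and at 4 h only Fh1 was higher (8.16% of all genes) and 0 were lower (7.87%). Against IL-4 alone 4 were higher (12.6%) and 5 lower (9.27%) at 2 h, and 8 were higher (13.4%) and 0 lower (6.33%) at 4 h. Across the 6 treated libraries edgeR's test with time as a second term found 0 of 33 genes that differed between both cytokines and IFNγ (0% of all genes; 1 gene of the 33, Idh1, had an unadjusted p under 0.05, and DESeq2 called 0). Against IL-4, 0 genes passed for both cytokines (0.660% of all genes higher, 0.237% lower; 10 of 33 had an unadjusted p under 0.05, and DESeq2 called 8).

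IFNγ against IL-4 over both times gave 4 higher genes (8.18% of all) and 1 lower (8.43%) in the same fit. Pdk1 was higher by 1.98 on the log2 scale (SE 0.27, adjusted p = 0.0313), Pfkm by 1.54 (SE 0.23, adjusted p = 0.03325), Hk2 by 1.27 (SE 0.16, adjusted p = 0.02984) and Pgam1 by 1.17 (SE 0.23, adjusted p = 0.04722). Idh2 was lower, at -1.27 (SE 0.18, adjusted p = 0.03325), but at -0.04 over merged regions (adjusted p = 0.8274) and with 10 kb either side (adjusted p = 0.8588). Without the libraries with both cytokines 0 passed, and 0 of all 11924 genes did. Over merged regions 10 were higher, Hk2, Pfkm and Pgam1 among them and Pdk1 not (0.61, adjusted p = 0.07455), and 1 was lower, Mdh2 and not Idh2. Of all 12456 genes 1649 were higher and 1695 lower over merged regions. For 4 h against 2 h edgeR called 0 of the 33 genes (0% of all), 9 had an unadjusted p under 0.05, and DESeq2 called Pfkl and Fh1.

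**Figure D4:**
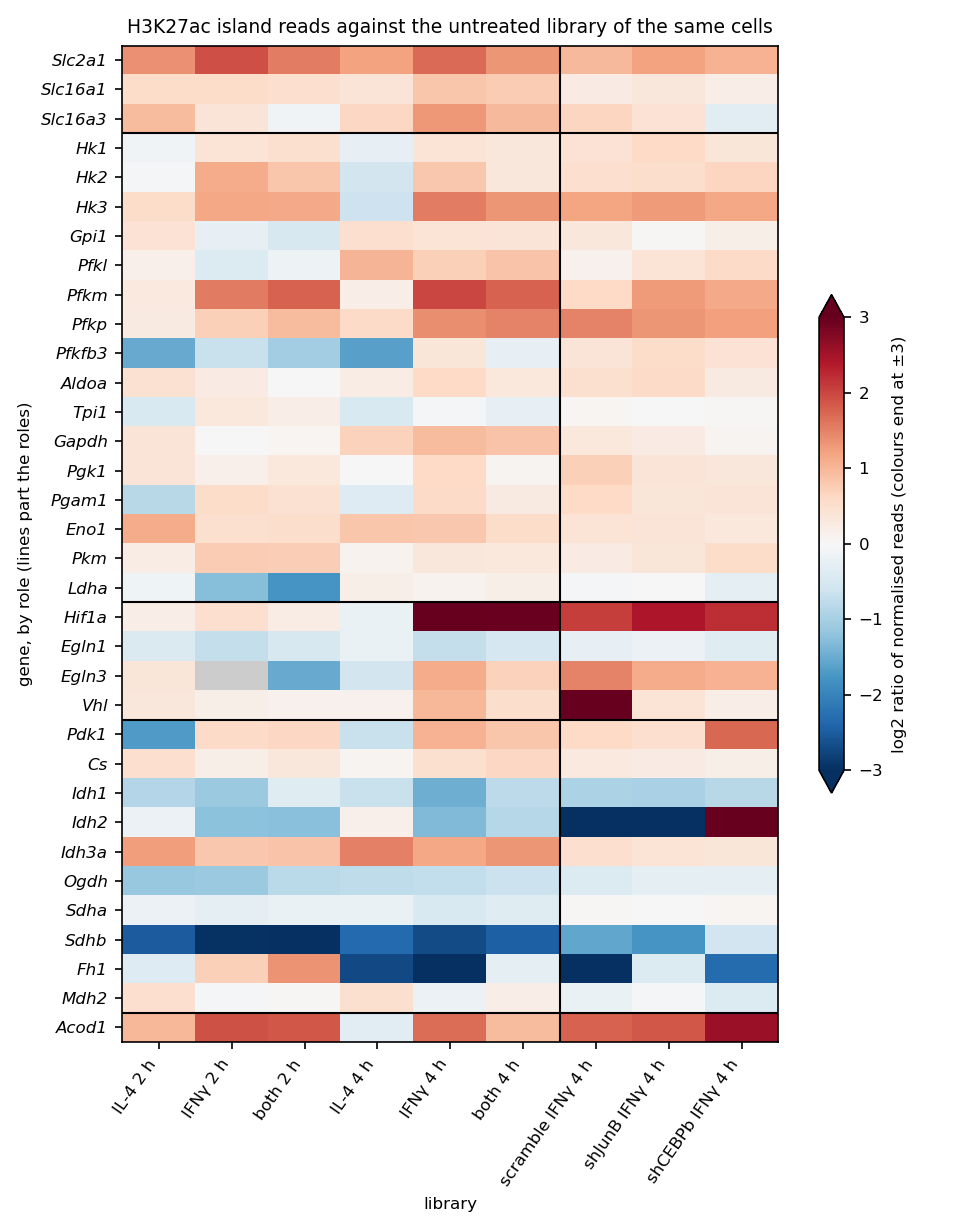
Log2 ratio of normalised reads (colour, from -3 to 3) of the 34 genes (rows, by role) in each treated library (columns) against the untreated library of the same cells; grey is not called. Slc2a1, Hk3, Pfkp, Hif1a and Acod1 are red in all 4 columns with 4 h of IFNγ alone, and Idh1 and Sdhb are blue there.

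No call between shRNAs was made at these genes by edgeR. Over untreated and IFNγ libraries together edgeR called 0 of 34 for shJunB against scramble (0% of all genes; 2 had an unadjusted p under 0.05 and DESeq2 called Egln3) and 0 of 34 for shCEBPb (0.00803% of all genes higher and 0% lower; 2 had an unadjusted p under 0.05 and DESeq2 called Pfkl). By size, shJunB cells had 1 gene higher (4.03%) and 1 lower (3.92%) untreated, and 0 higher (4.79%) and 1 lower (2.91%) with IFNγ. ShCEBPb cells had 2 higher (3.50%) and 2 lower (2.36%) untreated, and 3 higher (3.95%) and 0 lower (1.83%) with IFNγ. Over merged regions only Fh1 in untreated and Egln3 in IFNγ-treated shJunB cells passed, both lower. Egln3 held 458 normalised reads there against 924 in scramble cells.

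Of 74 other genes listed for these pathways, 66 were tested over the 4 pairs, and 8 rose and 9 fell, near or below the 15.3% and 17.8% of all genes. Their median log2 fold change was -0.19, and their difference from the 34 was not tested. Of 17 further TCA cycle and citrate genes 4 fell, and of 12 further glycolysis genes 4 rose and 1 fell. Minpp1, a phosphatase that also acts on 2,3-bisphosphoglycerate, rose by 2.21 (SE 0.44, adjusted p = 0.02306), and Slc2a6, a glucose transporter family member of myeloid cells, by 1.05 (SE 0.13, adjusted p = 0.008164). Pdhx, a component of the pyruvate dehydrogenase complex, fell by 2.00 (SE 0.24, adjusted p = 0.008165), and Sdhc, a membrane anchor of succinate dehydrogenase, by 2.17 (SE 0.49, adjusted p = 0.02968). Sdhc held 7353 normalised reads in untreated cells and 880 after 4 h of IFNγ, but also 1165 and 1792 after 2 h and 4 h of IL-4. With IFNγ it went from 3054 to 589 in scramble, from 4000 to 637 in shJunB and from 3709 to 2691 in shCEBPb cells.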

How the data were processed

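The tools named in the submitters' processing notes are Bowtie2 2.2.6 for alignment and SICER 1.1 for islands, with the builds mm10 and GRCm38. Deposited counts are raw numbers of ChIP and control reads in an island. The authors' calling also gave each island a deposited p-value, an FDR and a ratio (fold over control). Of these only the ratio was used here, to describe islands and to recover read totals. The recovered totals scaled the control reads where these were subtracted. A single control of 14110230 reads served all libraries; it and the library totals were recovered from the deposited fold, as the smallest totals that fit. The window, gap and FDR settings are those the deposited names give.

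ChIP reads of a library's own islands touching a gene's span (GRCm38.p6, RefSeq) or 1 kb either side were summed and divided by median-of-ratios size factors over the 14347 of 39569 merged regions called in all 13 libraries. The 34 genes and all lists were chosen with earlier results of these data known. Promoters matched 33 of the 34 by symbol, Idh3a being the one without. For the size rule and medians a gene that a library did not call took the 5th percentile of that library's reads per island, and no fold is given against it. Fits used edgeR 4.0.16 in R 4.3.3 (quasi-likelihood, genes called in all libraries of the fit, adjusted p under 0.05): 4 h of IFNγ over 4 pairs with the pair as a block, 6 treated cytokine libraries with treatment and time, and 6 knockdown libraries with shRNA and IFNγ. DESeq2 1.42.0 was an alternative. Tested on simulated data of the first fit, 33 of 100 genes changed 2-fold and 94 of 100 changed 4-fold were called, with 7 false calls among 11849 genes. Every gene among the 34 is accounted for; values in every library could be given for genes past the size rule against untreated cells or past the first fit, and are given for those the results turn on; other pathway genes are named where they passed that fit with a log2 change of at least 1; promoters are shown for the 4 largest changes. Figures used matplotlib 3.10.9, tables Python 3.11.15 with pandas 2.3.3.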

Additional observations from a re-analysis of the deposited data

Results flagged for a closer look

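2 genes were past the size rule in opposite directions under the same treatment, and the difference was not tested for either. Idh2, the mitochondrial NADP-dependent isocitrate dehydrogenase, had a log2 ratio after 4 h of IFNγ of -1.33 in the cytokine experiment, -5.09 in scramble and -4.71 in shJunB cells, and of 4.24 in shCEBPb cells. The high values, 13609 normalised reads in untreated scramble cells, 11375 in untreated shJunB cells and 13601 in shCEBPb cells with IFNγ, go with called lengths of 94.0 to 99.0 kb, where the other libraries had 2.4 to 12.8 kb. Over merged regions Idh2 held 11375 to 15496 normalised reads in all 13 libraries. Egln3 had no called island after 2 h of IFNγ, where untreated cells had 171.2 normalised reads, and a log2 ratio of 1.11 after 4 h.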

How the results depend on the processing

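Over the 4 pairs with 4 h of IFNγ, Acod1, Egln3, Hif1a, Hk3, Pfkp and Slc2a1 stayed past the test as higher and Idh1 as lower under all 10 alternatives (TMM, DESeq2, no pair block, genes called in at least 1 library, merged regions, 10 kb either side, and each pair left out). Leaving out a pair gave 8 to 17 of the 34 genes (8 without the scramble, the shJunB or the shCEBPb pair) and 1316 to 3794 of all genes (1424, 1437 and 1316 without the same pairs), against 20 and 3923. Without the pair block 16 of the 34 passed. In every other fit the leave-one-out counts were 0. Of 144 other alternatives of the counts, 101 stayed within 1.5 times. DESeq2 called 5957 of all genes over the 4 pairs, 2 of the 34 for 4 h against 2 h, 9 for IFNγ against IL-4, 8 for both against IL-4, and 1 for each shRNA. Genes called in at least 1 library gave 2 for IFNγ against IL-4. Merged regions gave 11 for IFNγ against IL-4 and 2 for both against IL-4 in edgeR, and by size 4 for IL-4 at 2 h, 6 for IFNγ in shCEBPb cells, 1 for untreated shJunB, 0 for shCEBPb with or without IFNγ, 0 for both against IFNγ at 4 h and 5 for both against IL-4 at 2 h. A flank of 10 kb gave 3 for IFNγ against IL-4, 1 for both against IL-4, and 1 by size for shCEBPb with and without IFNγ. Subtracting control reads gave 11 by size for both cytokines at 4 h and 1 for both against IFNγ at 2 h. Sharing island reads out by overlap gave 1 for IFNγ in shCEBPb cells, 0 for untreated shJunB and for shCEBPb with or without IFNγ, and 4 and 5 for both against IL-4 at 2 h and 4 h. Reads per kb of called length gave 2 and 7 for IFNγ at 2 h and 4 h, 2 and 1 for IL-4, 2 and 3 for both, 4 and 3 for IFNγ in shJunB and shCEBPb cells, 0 for shJunB with or without IFNγ, 1 and 0 for shCEBPb without and with it, 0 for both against IFNγ at 4 h, and 1 and 2 for both against IL-4. The direction turned at Eno1 over the 4 pairs (-0.33 over merged regions, -0.017 with 10 kb). Per kb it turned at Pfkfb3 (0.22 at 2 h, 0.12 at 4 h) and Pdk1 (0.024 at 2 h) with IL-4, at Ldha with both cytokines at 2 h (0.34), at Pfkm in shJunB (-0.14) and shCEBPb cells (-0.085) and Pdk1 in shCEBPb cells (-0.18) with IFNγ, at Pfkl for shCEBPb against scramble with IFNγ (-0.59), and for both against IL-4 at Slc16a3 (0.14), Pfkm (-0.076), Ldha (0.65) and Sdhb (0.15) at 2 h and at Pfkm (-0.42), Pfkfb3 (-0.081), Egln3 (-0.068) and Pdk1 (-0.031) at 4 h. Over merged regions or with 10 kb it turned at Idh2 with IFNγ (0.021 in the cytokine pair, 0.013 in shJunB cells), and for shCEBPb against scramble at Pfkl (-0.16) and Pdk1 (0.044) untreated and at Sdhb (-0.0040 and -0.035) with IFNγ; over merged regions also at Vhl for untreated shJunB (-0.053). By overlap it turned at Idh2 (-0.30) and Fh1 (0.14) in shCEBPb cells with IFNγ, and for shCEBPb against scramble at Pdk1 untreated (0.69) and Pfkl with IFNγ (-0.41). Fewer pairs entered where one was left out, and per kb values leave out called length by construction; the cause of the other changes was not tested. In all, 31 of 665 alternatives of the size-rule ratios turned direction. With 1 library per condition no ratio of 2 libraries has a replicate check, and depth sets only the counting intervals.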
